A study of Homo sapiens with 10 samples.

Results

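RNA levels of 10 genes that carry out or restrain transforming growth factor beta (TGF-beta) and bone morphogenetic protein (BMP) signalling were followed in MDA-MB-435, a human melanoma cell line. The genes were taken by name as every probe annotated to ID1, ID2, ID3, ID4, SMAD6, SMAD7, SKIL, TGIF1, BAMBI and TGFBI, which gave 16 of the 24105 probes used and 10 of the 16372 genes on the array. Of these, 11 probes for 9 genes were kept for testing, since their detection score, which runs from 0 to 1 and is high for signals well above the array's negative controls, reached 0.99 on at least 1 array. Among all probes, 14018 were kept. Both probes of ID1 and 3 of the 6 probes of TGIF1 were not kept, and SMAD6 was kept through 1 array alone.

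TGF-beta and BMP ligands bind paired serine/threonine kinase receptors, which phosphorylate receptor SMADs that enter the nucleus with SMAD4 and switch genes on or off. Several of the genes they switch on dampen the same signal, among them the inhibitory SMADs, the nuclear corepressors SKIL and TGIF1, and the decoy receptor BAMBI. The ID genes are classical BMP targets, and their proteins lack a DNA-binding region and hold basic helix-loop-helix (bHLH) factors away from E-box sites. In melanocytes and melanoma cells the ID proteins are best known for keeping cells dividing and undifferentiated.

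The study compared a time course of hepatocyte growth factor (HGF), the ligand of the MET receptor, and a gain of integrin beta-4 with untreated cells on Illumina bead arrays. It also profiled the same RNAs on Affymetrix arrays, which were not used here. The Illumina arrays formed 5 groups of 2 arrays, namely untreated MDA-MB-435 cells, the same line given HGF for 1 h, 6 h or 24 h, and the line stably transduced with integrin beta-4 (ITGB4). The design text describes the samples as biological duplicates, and p-values measure the spread between these samples only. No dose of HGF and no harvest time of the untreated cells is given in the labels, and the transduced cells were compared with cells that had not been transduced, so the time in culture and the act of transduction cannot be told apart from HGF and from the integrin. In bulk RNA, fewer cells expressing a gene and less RNA of it per cell cannot be told apart either.

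Between 42.4% and 49.4% of the probes were detected on an array, and the median number of beads per probe was 26 to 32. The ITGB4 probe gave 6788 and 5023 on the ITGB4 arrays and 59.6 to 63.9 elsewhere, MET was near the detection limit (78.5 to 112.1, detected on 6 of 10 arrays) and HGF was not detected. Of 8 melanocyte lineage markers 7 had a probe, all 7 were detected on some array and 6 on every array (TYRP1 at 6886 to 11347). The epithelial, fibroblast and immune markers were mixed. CDH1, EPCAM, KRT19, COL1A1, COL1A2, COL3A1, PDGFRB, CD3E and CD14 were detected on none. KRT18 (318.3 to 569.5), DCN (214.5 to 283.6), LUM (277.8 to 688.2) and CD68 (144.4 to 255.0) were detected on all 10 arrays, KRT8 on 9 and PTPRC on 5. Replicate 1 of the untreated cells and of each HGF time lay on arrays with a low background score (a 25th percentile of the detection score of 0.0081 to 0.022, against 0.249 to 0.388 on the other 6 arrays), so the called differences are also given separately for low-score and for high-score arrays. All values are quantile-normalised signals in arbitrary units, for which the detection limit lies near 89.6. Because a probe's brightness depends on its sequence, signals were compared between arrays and not between genes. A difference is a log2 difference of group means with the standard error (SE) of the fit, and a probe was called at a limma p under 0.05 after Benjamini-Hochberg adjustment over the 14018 kept probes.

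The promoters of the 3 genes with a called difference are shown from RefSeq (GRCh38.p14). Each is 300 bases of the gene's own strand that start 250 bases before its annotated start. These genes share the feature of a low signal at 6 h of HGF, with both 6 h arrays below the other 8. A probe of TGIF1 and that of SMAD6 had this feature too, but were not called and their promoters are not shown. Capitals mark the SMAD-binding letters GTCT, read on either strand (AGAC), and GGCGCC, a GC-rich sequence bound by SMADs of the BMP branch.
ID4, chr6:19837120-19837419, plus strand: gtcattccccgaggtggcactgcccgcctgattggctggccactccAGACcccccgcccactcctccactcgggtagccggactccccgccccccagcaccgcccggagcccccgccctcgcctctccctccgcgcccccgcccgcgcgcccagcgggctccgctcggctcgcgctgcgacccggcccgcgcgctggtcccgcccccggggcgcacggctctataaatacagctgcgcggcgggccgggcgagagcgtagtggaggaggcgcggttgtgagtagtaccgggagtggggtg
BAMBI, chr10:28677271-28677570, plus strand: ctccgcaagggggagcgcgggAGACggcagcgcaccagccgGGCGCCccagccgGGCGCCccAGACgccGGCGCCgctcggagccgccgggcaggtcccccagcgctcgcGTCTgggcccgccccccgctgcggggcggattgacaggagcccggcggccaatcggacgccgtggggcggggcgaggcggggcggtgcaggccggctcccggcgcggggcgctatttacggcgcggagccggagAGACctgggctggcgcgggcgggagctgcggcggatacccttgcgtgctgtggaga
TGFBI, chr5:136028738-136029037, plus strand: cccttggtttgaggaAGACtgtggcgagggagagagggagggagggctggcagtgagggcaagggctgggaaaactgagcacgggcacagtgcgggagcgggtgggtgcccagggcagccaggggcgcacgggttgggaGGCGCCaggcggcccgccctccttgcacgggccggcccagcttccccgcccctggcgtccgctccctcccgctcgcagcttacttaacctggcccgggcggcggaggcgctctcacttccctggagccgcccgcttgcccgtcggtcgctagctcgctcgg
The window of ID4 held 1 match of the GTCT letters and none of GGCGCC, that of BAMBI held 4 and 3, and that of TGFBI 1 and 1. These 2 motifs cannot overlap each other. GTCT or AGAC stood in 84% of all 35116 promoter windows and in all 18 windows of the 10 genes, and GGCGCC in 19.2% of all windows and in 3 of the 18. The E-box letters CANNTG, left in lower case and free to overlap the others, stood once in the window of ID4 and not in the windows of BAMBI and TGFBI, against 68.7% of all windows. The windows are rich in G and C, with 76.3%, 80.0% and 72.7% in this order, and the matches are descriptions of the letters and not of bound sites.

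Among the ID genes, ID4 fell at 6 h of HGF, ID2 and ID3 did not pass the test in any comparison, and ID1 was not detected and not tested. ID4 (probe GI_19923138-S) encodes an ID protein that can also oppose the other ID proteins. Its signal was 283.5 and 257.2 in untreated cells, 260.1 and 259.1 in ITGB4 cells, 197.2 and 213.7 after 1 h of HGF, 155.5 and 172.7 after 6 h, and 215.6 and 206.6 after 24 h. All 6 HGF arrays lay below all 4 arrays without HGF, and the 6 h arrays lay below every other array. Of the 11 kept probes, ID4 was the 1 with all HGF arrays below all arrays without HGF, a pattern found in 1.04% of all kept probes.

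At 6 h, ID4 fell 1.65-fold relative to untreated cells (log2 difference -0.72 ± 0.15 SE, 95% interval -1.05 to -0.39, limma adjusted p = 0.033). It was 1 of 11 kept probes called at that time, where 1.9% of all kept probes were called and 0.935% were called lower. The difference was -0.87 on the low-score arrays and -0.57 on the high-score arrays. The call was lost, with adjusted p from 0.055 to 0.24, when untreated replicate 1 or 2, ITGB4 replicate 1 or 2, or HGF 6 h replicate 1 or 2 was left out, while the difference stayed between -0.80 and -0.65. At 1 h the difference was -0.40 ± 0.15 (adjusted p = 0.29) and at 24 h -0.36 ± 0.15 (adjusted p = 0.86), and neither passed. The step from 1 h to 6 h was -0.33 ± 0.15 (adjusted p = 0.25) and that from 6 h to 24 h 0.37 ± 0.15 (adjusted p = 0.18), so neighbouring HGF times were not shown to differ. In ITGB4 cells ID4 differed from untreated cells by -0.06 ± 0.15, with a 95% interval from -0.39 to 0.27.

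ID2 (GI_33946335-S), a BMP and MYC target that binds E proteins and the retinoblastoma protein, had signals of 147.9 and 147.2 in untreated cells, 118.7 and 141.1 at 1 h, 128.0 and 123.3 at 6 h, 137.2 and 133.9 at 24 h, and 172.0 and 139.6 in ITGB4 cells. All 6 HGF arrays lay below both untreated arrays, which held for ID2 and ID4 among the 11 probes and for 3.67% of all kept probes, but the ITGB4 arrays spanned the untreated ones and reached into the HGF range. At 6 h the difference was -0.23 ± 0.16 (adjusted p = 0.57). ID3 (GI_32171181-S), another BMP target, ran from 79.8 to 133.3 and was detected on 8 of 10 arrays. Its low-score arrays read lower than the high-score array of the same group in all 4 pairs, with 79.9 against 115.7 in untreated cells and 79.8 against 113.2 at 6 h. The ITGB4 difference of ID3, 0.36 ± 0.22, was 0.09 when both ITGB4 arrays were set against the high-score untreated array alone. ID1 stayed at 50.3 to 56.9 by the probe of 1 isoform (GI_31317296-I) and at 52.6 to 66.3 by the probe of all transcripts (GI_31317298-A), below the detection limit on 10 of 10 arrays, so its direction was not measured.

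**Figure D1:**
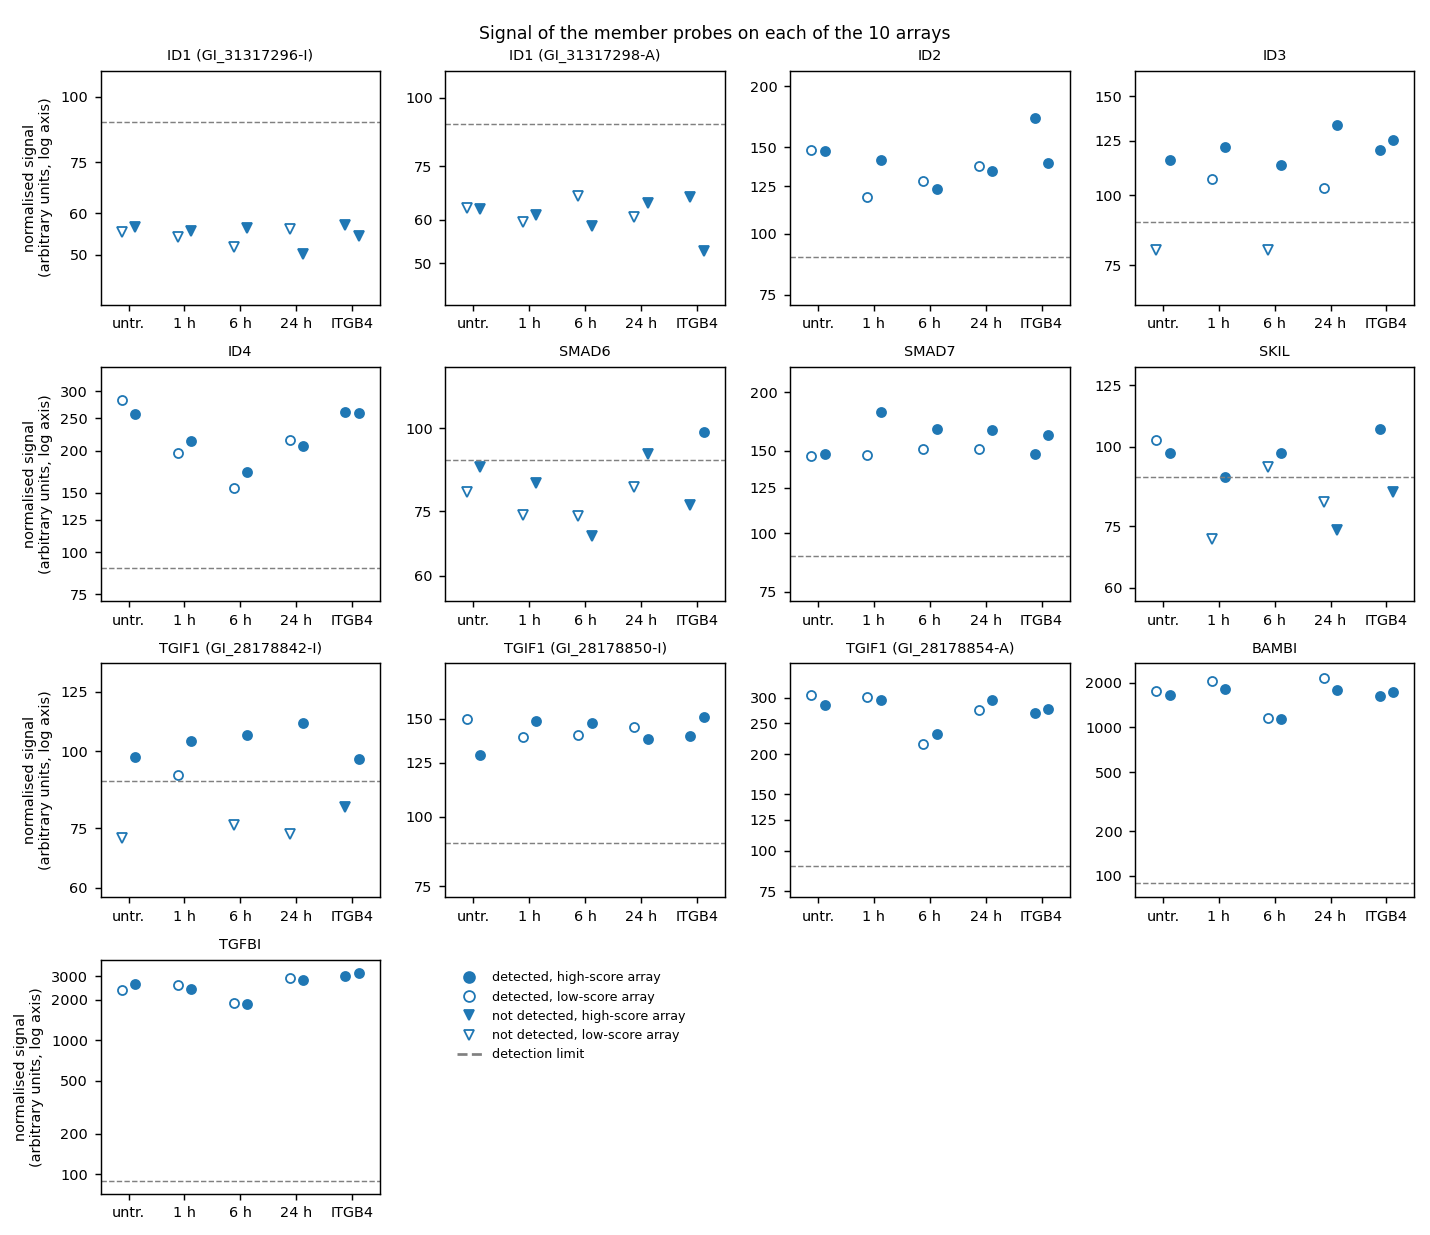
Normalised signal (log axis, arbitrary units) of 13 of the 16 probes on each array, by group (untr., untreated; 1 h, 6 h and 24 h, hours of HGF; ITGB4), with replicate 1 on the left and replicate 2 on the right of each pair. Circles mark detected and triangles undetected probes, open symbols the low-score arrays, and the dashed line the detection limit of 89.6; the 3 TGIF1 probes never detected are left out. ID4 is lowest at 6 h (155.5 and 172.7), as are BAMBI (1158 and 1134) and TGFBI (1905 and 1858), while both ID1 probes lie below the line.

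The inhibitory SMADs were not called in any comparison. SMAD7 (GI_5174516-S), which blocks the type I receptors of both branches and recruits ubiquitin ligases to them, was detected on every array. It read 145.9 and 147.5 in untreated cells, 146.6 and 181.2 at 1 h, 151.7 and 167.3 at 6 h, 151.7 and 166.1 at 24 h, and 147.6 and 162.2 in ITGB4 cells. The largest of its differences from untreated cells was 0.15 ± 0.16 at 1 h, and the 95% interval at 6 h ran from -0.23 to 0.47. SMAD6 (GI_19923322-S), which acts mainly on the BMP branch, ran from 68.7 to 98.8 and was detected on ITGB4 replicate 2 alone. Its 6 h arrays, at 73.8 and 68.7, lay below the other 8, but all of these values except 1 are those of an undetected probe and have no firm order.

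Of the nuclear corepressors, neither SKIL nor TGIF1 was called. SKIL (GI_4885598-S), the SnoN protein that binds SMAD complexes and silences their targets until TGF-beta has it degraded, lay near the detection limit and was detected on 5 of 10 arrays. The untreated arrays gave 102.4 and 97.6, the 1 h arrays 71.5 and 89.5, the 6 h arrays 93.0 and 97.6, the 24 h arrays 81.9 and 74.1, and the ITGB4 arrays 106.8 and 84.9. The 24 h arrays, both undetected, lay below both untreated arrays, with a difference of -0.36 ± 0.17 (adjusted p = 0.86).

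TGIF1, a homeodomain corepressor of SMAD2 and SMAD3 targets, had 6 probes, of which 3 were kept and none was called. Whether the 3 differed from each other was not tested, and their intervals at 6 h overlapped. The probe shared by all of its transcripts (GI_28178854-A) read 307.3 and 285.7 in untreated cells, 301.9 and 295.2 at 1 h, 215.7 and 231.6 at 6 h, 274.1 and 294.9 at 24 h, and 269.6 and 276.3 in ITGB4 cells. Both 6 h arrays were below the other 8, and the difference from untreated cells was -0.41 ± 0.15 (95% interval -0.73 to -0.08), which did not pass (adjusted p = 0.19) unless signals under the detection limit were raised to it (adjusted p = 0.049). The isoform probe GI_28178850-I stayed at 129.3 to 150.9 on all arrays, with a 6 h difference of 0.05 ± 0.15. A further isoform probe, GI_28178842-I, ran from 72.4 to 111.1, was detected on 6 arrays and differed by 0.09 ± 0.23. The other 3, GI_28178841-I, GI_28178844-I and GI_28178856-I, were detected on none, with highest signals of 61.1, 73.9 and 83.1.

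BAMBI, a receptor-like membrane protein without a kinase domain that joins receptor complexes and blocks them, was lowest at 6 h and differed from both neighbouring times. Its signal (GI_6912533-S) was 1743 and 1661 in untreated cells, 2063 and 1811 at 1 h, 1158 and 1134 at 6 h, 2153 and 1788 at 24 h, and 1619 and 1732 in ITGB4 cells. The 6 h arrays lay below the other 8, and the 1 h and 24 h arrays lay above both untreated arrays. BAMBI fell 1.69-fold from 1 h to 6 h (log2 difference -0.75 ± 0.16 SE, 95% interval -1.10 to -0.41, limma adjusted p = 0.022). It then rose 1.71-fold from 6 h to 24 h (0.78 ± 0.16, 95% interval 0.43 to 1.12, adjusted p = 0.010). The fall and the rise use the same 6 h arrays, so they are not independent of each other.

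These calls made BAMBI 1 of 11 kept probes called between 1 h and 6 h, where 4.67% of all kept probes were called and 2.43% were called lower, and 1 of 2 called between 6 h and 24 h, where 8.31% were called and 4.24% were called higher. The fall was -0.83 on the low-score and -0.68 on the high-score arrays, and the rise 0.90 and 0.66. The fall was not called without HGF 1 h replicate 1 (-0.66, adjusted p = 0.26), HGF 6 h replicate 1 (-0.77, adjusted p = 0.12) or HGF 6 h replicate 2 (-0.74, adjusted p = 0.13), and the rise was not called without HGF 6 h replicate 1 (0.79, adjusted p = 0.062), HGF 6 h replicate 2 (0.76, adjusted p = 0.080) or HGF 24 h replicate 1 (0.64, adjusted p = 0.059). Relative to untreated cells the 6 h difference was -0.57 ± 0.16 (95% interval -0.92 to -0.23) and did not pass (adjusted p = 0.088). It did once the fit carried the low-score or high-score state of an array as a block (adjusted p = 0.021). With that block 1066 of the 14018 kept probes were called in this comparison, against 267 without it. The differences at 1 h (0.18 ± 0.16), at 24 h (0.21 ± 0.16) and in ITGB4 cells (-0.02 ± 0.16) did not pass.

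TGFBI, a secreted matrix protein that binds integrins and is named for its induction by TGF-beta, rose between 6 h and 24 h. Its signal (GI_4507466-S) was 2356 and 2627 in untreated cells, 2586 and 2393 at 1 h, 1905 and 1858 at 6 h, 2911 and 2797 at 24 h, and 2983 and 3173 in ITGB4 cells. The 6 h arrays were the lowest of the 10 and the ITGB4 arrays the highest, with both 24 h arrays next below. The rise was 1.52-fold (0.60 ± 0.15 SE, 95% interval 0.27 to 0.93, limma adjusted p = 0.028), with 0.61 on the low-score and 0.59 on the high-score arrays. Without HGF 6 h replicate 1 or 2, or without HGF 24 h replicate 1 or 2, it lay between 0.57 and 0.63 and was not called, with adjusted p from 0.067 to 0.16.

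Against untreated cells, the 6 h difference of TGFBI was -0.40 ± 0.15 (adjusted p = 0.19), that at 1 h -0.0001 ± 0.15 and that at 24 h 0.20 ± 0.15, none of which passed. In ITGB4 cells it was 0.31 ± 0.15, with a 95% interval from -0.02 to 0.63 (adjusted p = 1), and 0.23 against the high-score untreated array alone. ITGB4 replicate 2 read 3173 from the scanner table used here. The same sample's column in the authors' value table does not follow that scanner table. Which of them belongs to the sample is not known, which touches every ITGB4 value given here. The array was also normalised with the others and entered the shared spread of the fit, so it bears on the SE and p of every comparison.

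**Figure D2:**
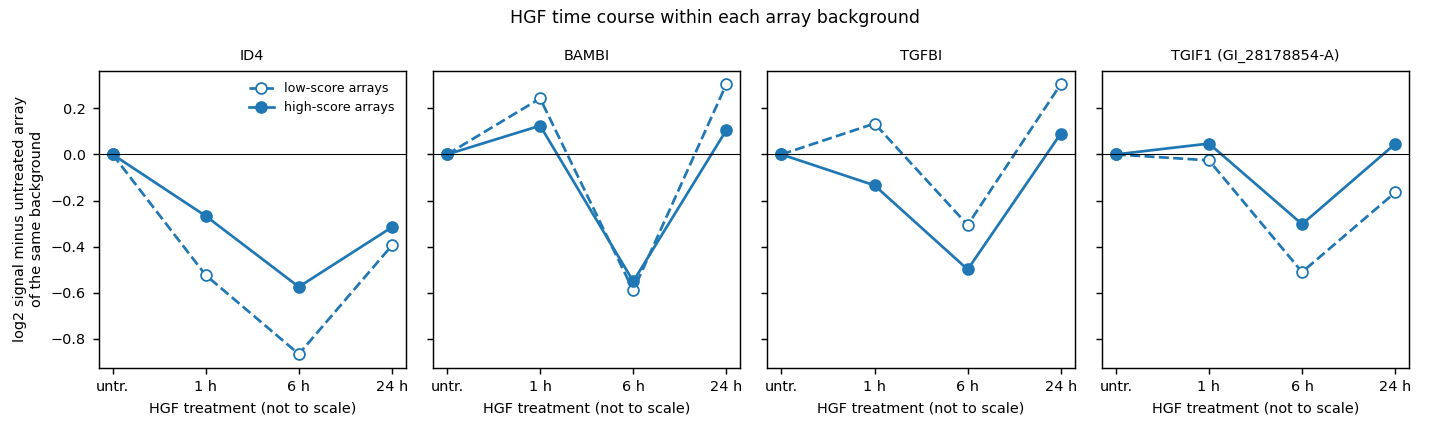
Log2 signal of 4 probes at 1 h, 6 h and 24 h of HGF, each array minus the untreated array of the same background score (equal spacing on the time axis, not to scale); 1 array per point. Dashed lines with open circles join the low-score arrays and solid lines the high-score arrays. In both, all 4 probes are lowest at 6 h, at -0.87 and -0.57 for ID4 and at -0.59 and -0.55 for BAMBI. These are probes whose 6 h arrays both lay below the other 8, so this low in both follows from that pattern and is no separate check. Kept probes without that pattern are not drawn.

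The kept probes were not all low at 6 h. Both 6 h arrays lay below the other 8 for 5 of 11 (ID4, BAMBI, TGFBI, the shared probe of TGIF1 and SMAD6, whose values there are undetected and carry no order), a pattern held by 11.1% of all kept probes. SMAD7 and the TGIF1 isoform probes lay slightly above untreated cells at 6 h, ID3 was at -0.02, and SKIL was higher at 6 h than at 1 h by 0.25, none of them called. The median 6 h difference of the 11 probes from untreated cells was -0.23, against 0.01 over all kept probes, with 8 of 11 below 0 and 4 of 11 under an unadjusted p of 0.05 (16% of all). For 7 of 11 the 2 arrays of each group did not overlap, where 44.6% of all probes did not. In the 6 h arrays the summed signal of the 7 melanocyte markers was 16295 to 17666, against 22954 to 26278 in untreated cells. It was also below untreated cells at 1 h (20232 to 22396), at 24 h (19002 to 22594) and in ITGB4 cells (20824 to 21157). The 6 h sum of the 6 fibroblast markers, 2 of them detected (DCN and LUM), was 797 to 897 against 1077 to 1161 untreated. It was 782 to 932 at 1 h, 819 to 964 at 24 h and 945 to 1040 in ITGB4 cells. For the 5 epithelial markers, 2 detected (KRT8 and KRT18), the 6 h sum was 793 to 851 against 673 to 686. It was 746 to 853 at 1 h and 593 to 808 at 24 h. For 4 immune markers, 2 detected (PTPRC and CD68), the 6 h sum was 400 to 411 against 360 to 375. It was 377 to 473 at 1 h and 364 to 391 at 24 h. DCN and COL1A1 also stand among the pathway genes that follow. The part of these shifts in the members' differences was not tested.

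None of the 11 kept probes was called by limma at 1 h, where 0% of all kept probes were called, at 24 h (0%) or in ITGB4 cells, where the 1 called probe was 0.00713% of all. The pooled-variance test without moderation called none of them either. At an unadjusted p under 0.05 there was 1 of 11 at 1 h (ID4, with 13.5% of all kept probes), 1 of 11 at 24 h (ID4, 5.71% of all) and 0 of 11 in ITGB4 cells (0.835% of all). The groups did not overlap for 4 of 11 probes at 1 h (44.2% of all), 6 of 11 at 24 h (29.6%) and 4 of 11 in ITGB4 cells (25.7%), with median differences of 0.01, 0.04 and 0.06. Between 1 h and 6 h they did not overlap for 6 of 11 (48.5% of all) and between 6 h and 24 h for 7 of 11 (42.8%). All 4 comparisons with untreated cells, that at 6 h included, share the 2 untreated arrays, and each comparison between times shares its arrays with those of the same times.

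**Figure D3:**
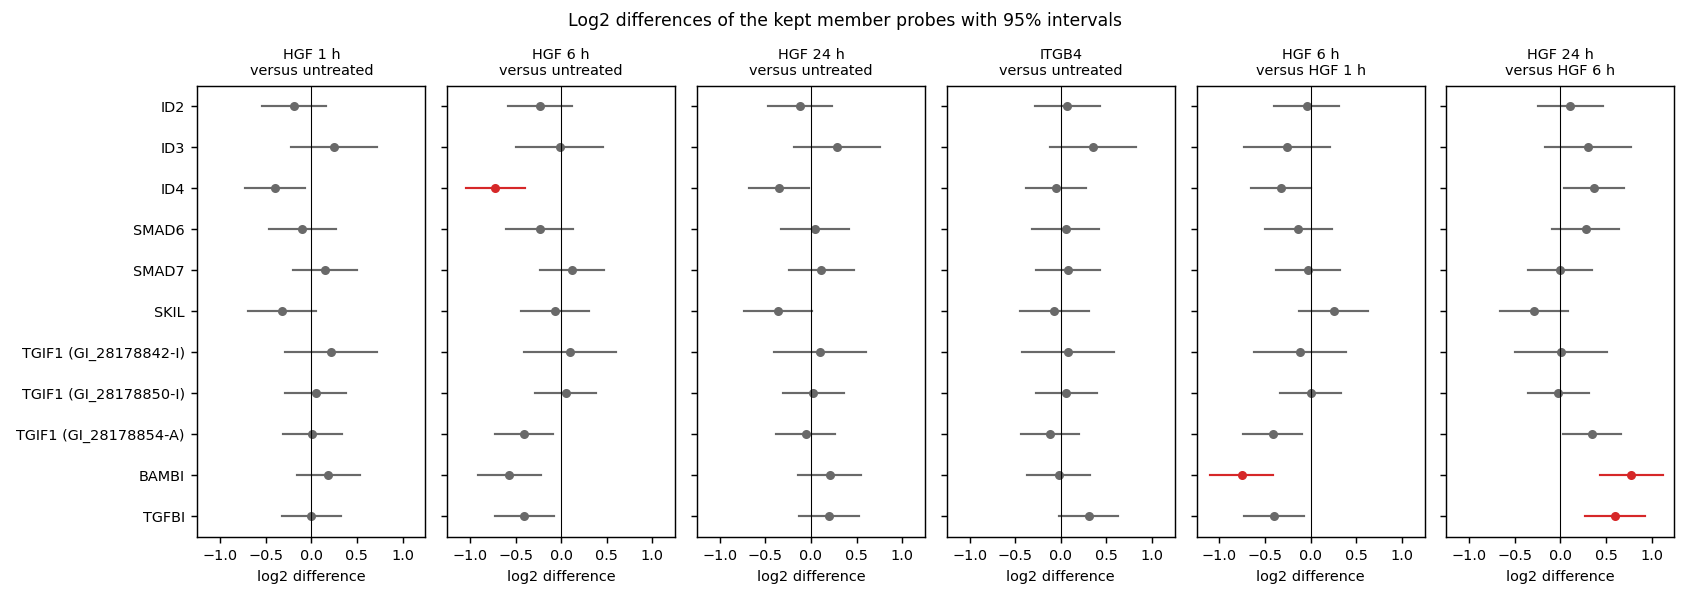
Log2 difference of group means for the 11 kept probes in each of 6 comparisons, with 95% intervals of the limma fit (horizontal bars) and 0 as a vertical line. Red points passed an adjusted p under 0.05, and they are ID4 at 6 h versus untreated (-0.72), BAMBI at 6 h versus 1 h (-0.75), and BAMBI (0.78) and TGFBI (0.60) at 24 h versus 6 h.

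Of 78 other genes of the pathways, none of them a member, 54 had a kept probe and were each read by the brightest. At 6 h versus untreated cells 0 rose and 3 fell, which is 5.56% of the 54 against 2.22% of all 10601 genes, with a median of -0.09 against -0.002. The 3 were LTBP4, which holds latent TGF-beta in the matrix (-0.93 ± 0.19, adjusted p = 0.030), FSTL1, a secreted follistatin-like glycoprotein (-0.84 ± 0.18, adjusted p = 0.032), and SNAI2, the transcription repressor SLUG (-0.97 ± 0.21, adjusted p = 0.033). All 3 calls were lost when either untreated array or either 6 h array was left out. With the low-score or high-score state of the array as a block, 8 genes were called, 2 higher (THBS1, 0.75, and CDKN1A, 0.80) and 6 lower, the 3 above with BMP4 (-0.60), ACVR2B (-0.61) and LTBP1 (-0.59), which is 14.8% against 8.64% of all genes. The replicate number as a block called the same 8, but it splits the untreated and HGF arrays in the same way, so it is not a separate check. At 1 h, at 24 h and in ITGB4 cells 0 of 54 were called by limma, against 0%, 0% and 0.00943% of all genes, and 0 by the pooled-variance test, while 4, 4 and 1 of them (7.41%, 7.41% and 1.85%) had an unadjusted p under 0.05, against 15.4%, 6.36% and 0.811% of all genes.

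LTBP4 read 148.4 and 188.0 in untreated cells, 225.1 and 174.5 at 1 h, 83.3 and 92.3 at 6 h, 211.1 and 244.4 at 24 h, and 151.1 and 186.3 in ITGB4 cells. The first 6 h array was undetected, and both lay below the other 8. SNAI2 read 1508 and 1675 untreated, 1006 and 1401 at 1 h, 808 and 818 at 6 h, 1690 and 1427 at 24 h, and 1334 and 1911 in ITGB4 cells, again lowest at 6 h. FSTL1 was also lowest at 6 h, with 98.6 and 90.4 against 180.8 and 158.9 in untreated cells, and stayed at 136.8 and 112.7 at 24 h.

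By role, the 7 extracellular binders and antagonists were all below 0 at 6 h, with a median of -0.47 and 2 of them called. So were the 5 activating and common SMADs, with a median of -0.33 and none called. Of all 10601 genes, 5257 were above 0 and 2.22% were called. LTBP3 (-0.13 ± 0.19), FST (-0.11 ± 0.15, detected on 2 arrays), SMAD1 (-0.003 ± 0.15) and SMAD3 (-0.06 ± 0.17) lay within their SE of 0. The 14 other targets had a median of 0.21, with 11 above 0 and only SNAI2, which fell, called among them. The 7 ligands (-0.09), 8 receptors (-0.21), 9 intracellular regulators (-0.04) and 4 bHLH partners (-0.19) had no call at that time.

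Between 1 h and 6 h, 2 of the 54 genes rose and 3 fell (9.26%, against 5.51% of all genes). The matrix glycoprotein THBS1, which can activate latent TGF-beta, rose by 0.92 ± 0.24 and the chromatin factor HMGA2 by 0.82 ± 0.20. The activin receptor ACVR2B (-0.75 ± 0.18), LTBP4 (-1.18 ± 0.19) and the activin antagonist FSTL3 (-0.72 ± 0.18) fell. HMGA2 read 69.8 (undetected) and 102.3 at 1 h, and FSTL3 read 80.9 (undetected) and 96.4 at 6 h. With signals floored at the detection limit, LTBP4 alone was called in this comparison. Between 6 h and 24 h, 4 rose and 2 fell (11.1%, against 9.53%). ACVR2B (0.90 ± 0.18), LTBP4 (1.37 ± 0.19), FSTL3 (0.67 ± 0.18) and SNAI2 (0.93 ± 0.21) rose, and THBS1 (-1.06 ± 0.24) and the cell cycle inhibitor CDKN1A (-1.02 ± 0.22) fell. Over leaving out each array in turn, the genes called numbered 0 to 5 in the first of these comparisons, with 0 without HGF 1 h replicate 1 or HGF 6 h replicate 1 and 1 without HGF 6 h replicate 2, and 2 to 7 in the second, with 3 without HGF 6 h replicate 1 and 2 without HGF 6 h replicate 2 or HGF 24 h replicate 1.

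**Figure D4:**
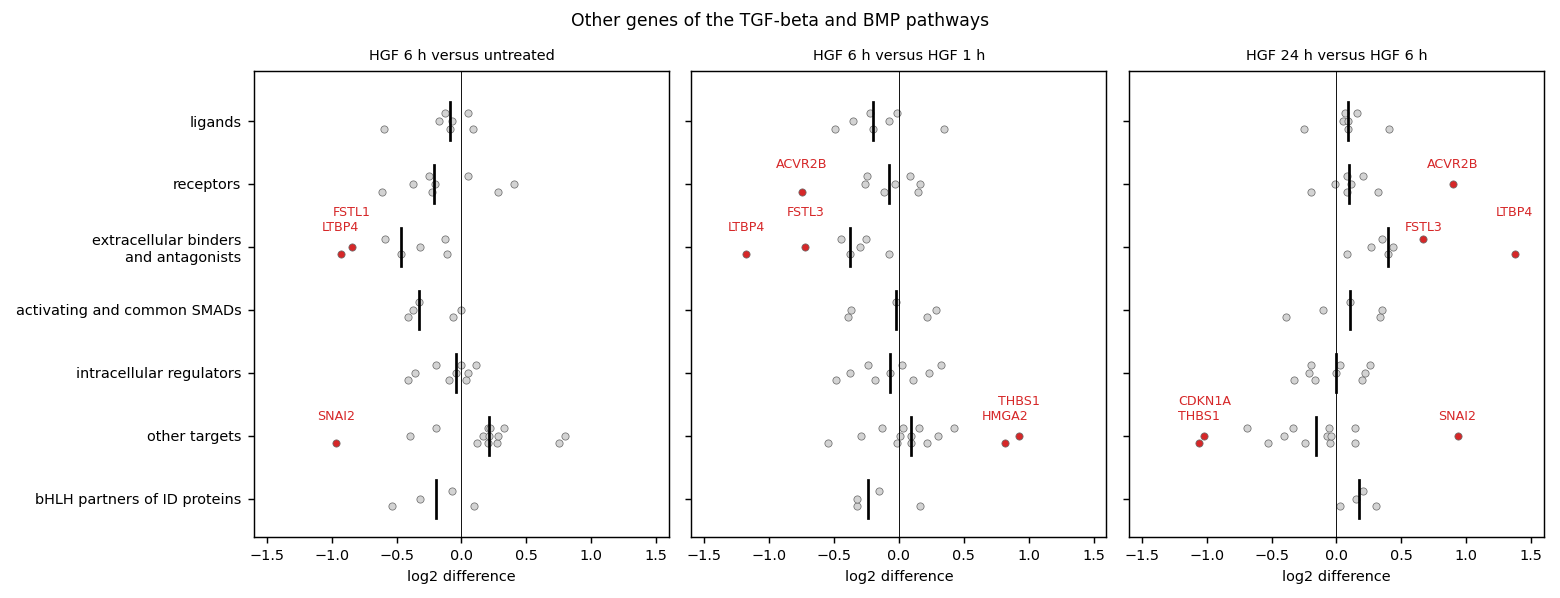
Log2 differences of 54 other genes of the TGF-beta and BMP pathways in 3 comparisons, 1 point per gene by role, with a black bar at each list's median and 0 as a vertical line. Red, named points passed an adjusted p under 0.05. At 6 h versus untreated the 7 extracellular binders and antagonists all lie left of 0, and LTBP4 is called in all 3 comparisons.

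Several central parts of the pathway were not called. The type I receptor TGFBR1 (96.9 to 139.6 on all arrays) differed by 0.05 ± 0.20 at 6 h, the type II receptor BMPR2 (91.7 to 141.2) by -0.37 ± 0.17 (adjusted p = 0.29), SMAD3 (125.9 to 181.9) by -0.06 ± 0.17 and the common partner SMAD4 (584.6 to 896.9) by -0.41 ± 0.18 (adjusted p = 0.26). The ligand TGFB1 and the receptor TGFBR2 were detected on no array, with highest signals of 60.8 and 51.1, and BMPR1A was not analysed here. Of the E proteins that ID proteins bind, TCF3 (186.7 to 263.0) differed by -0.07 ± 0.16 at 6 h and TCF4 was detected on 1 of 10 arrays. TCF12, the third E protein (407.8 to 794.7), differed by -0.69 ± 0.20 at 1 h (adjusted p = 0.20, but 0.034 with the replicate block and 0.062 with the array background block) and -0.54 ± 0.20 at 6 h (adjusted p = 0.19).

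For the 3 members with the lowest unadjusted p against untreated cells, the most similar genes were found by Pearson correlation over the 5 group means among 10600 other genes, as a description. With ID4 these were RHOBTB1 (r = 0.995), TLE4 (0.993) and PER3 (0.992), with BAMBI ACTN4, PRUNE1 and VSIG10L (0.999 or more), and with the shared probe of TGIF1 HYKK (0.999), VPS26C (0.998) and RWDD2A (0.997). With 5 points such values are common, since 121, 442 and 177 genes exceeded 0.95 with ID4, BAMBI and TGIF1.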

How the data were processed

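Total RNA of 10 MDA-MB-435 samples had been hybridised to 10 Illumina arrays, 2 in each of 5 groups taken from the labels. The authors deposited 1 scanner table per array, made with BeadStudio 1.5.1.3 per the submitters' processing notes, which give each probe's intensity, averaged over its beads, with no normalisation between arrays. The deposited detection score is a fraction from 0 to 1, and the deposited tables also give the count of beads behind each probe. A deposited value table holds the intensities after the authors' background subtraction and rank-invariant normalisation and was used as an alternative. Its column of ITGB4 replicate 2 did not follow that sample's scanner table (largest residual 7751, Spearman correlation 0.968), unlike the other 9 columns (largest residual 0.106).

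Of 24136 probes, 22 control probes and 9 without an intensity on some array were set aside. Intensities were quantile normalised and taken to log2 with no floor, and probes with a detection score of 0.99 or more on at least 1 array were kept, after the study's methods. In limma 3.58.1 (R 4.3.3), 1 fit of 5 group means over 10 arrays gave two-sided moderated tests of 6 comparisons, with 5 residual and 8.16 prior degrees of freedom. The number of arrays limits the precision. The detection limit is the median over arrays of the lowest detected signal. Gene symbols came from the platform annotation, which gave none for 5347 of the probes used. The scripts were tested on simulated data.

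The text names every member probe, the pathway genes called in any comparison, 11 pathway genes set by name (1 of them is not reported here), and the 3 genes most like each of 3 members. The members, lists and comparisons were chosen with earlier results of these data known. The alternatives were another background correction, scaling, value source, filter, floor, test, block, and leaving out each array. No set test was run. The genome build of the probe design is not given in the sources used here, and promoter windows are from the RefSeq table (GRCh38.p14).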

Additional observations from a re-analysis of the deposited data

Results flagged for a closer look

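BAMBI and TGFBI were flagged because their responses at different hours of HGF differed by a direct test, in which the shared untreated arrays cancel. The BAMBI response at 6 h was lower than that at 1 h by a log2 difference of -0.75 (limma adjusted p = 0.022), and that at 24 h was higher than that at 6 h by 0.78 (adjusted p = 0.010). The TGFBI response at 24 h was higher than that at 6 h by 0.60 (adjusted p = 0.028). Each rests on 2 arrays a group, and all use the same 6 h arrays. Both 6 h arrays lay below all 8 others for both genes, as for 11.1% of all kept probes. Such calls were not rare, with 4.67% of all kept probes called at 6 h versus 1 h and 8.31% at 24 h versus 6 h. By p among the 14018 kept probes, BAMBI ranked 247 and 411 in these comparisons, and TGFBI 780 in the second.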

How the results depend on the processing

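Over 21 alternatives the 4 called differences kept their sign, but many of these alternatives could not change a difference. The filters, the floor, the pooled-variance test, the blocks and leaving out an array of another group left ID4 at -0.72. Only the background correction, scaling, value source, an array left out of a compared group and the split by array score could move it. ID4 at 6 h ranged from -1.03 (value table) to -0.57, and was called in 12 of 19 tests, BAMBI at 6 h versus 1 h from -0.96 to -0.66 (15 of 19), BAMBI at 24 h versus 6 h from 0.64 to 0.91 (15 of 19), and TGFBI from 0.52 to 0.71 (15 of 19). The pooled-variance test without moderation left ID4 at -0.72 (adjusted p = 0.083) and BAMBI at -0.75 (0.11) and 0.78 (0.054) uncalled. On low-score and on high-score arrays ID4 was -0.87 and -0.57 and the BAMBI rise 0.90 and 0.66. Leaving out each array in turn gave -0.80 to -0.65 for ID4, -0.85 to -0.66 and 0.64 to 0.91 for BAMBI, and 0.57 to 0.63 for TGFBI, on values normalised and filtered with all 10 arrays, where a lone array is assumed to vary like the others.

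Of 11 member probes, 1 was called at 6 h versus untreated, 1 at 6 h versus 1 h and 2 at 24 h versus 6 h. With signals floored at 89.6 these counts were 2, 2 and 4, and with the pooled-variance test 0, 0 and 1. With the replicate block the first was 2 (ID4 and BAMBI), as with the array background as a block. Over leaving out each array they ranged from 0 to 1, 0 to 1 and 0 to 2. All kept probes called at 6 h numbered 267, and 200 with the floor. The replicate and background blocks raised this to 1089 and 1066. The value table gave 468, detection on both arrays of a group 407 and the pooled-variance test 0. The 654 at 6 h versus 1 h and 1165 at 24 h versus 6 h became 1871 and 2245 with the replicate block, 1690 and 2163 with the background block, 0 and 107 with the pooled-variance test, 337 and 955 with the floor, and 0 to 1037 and 308 to 1068 over leaving out each array, and 0 at 1 h became 427 with the replicate block. The replicate numbers were not taken to pair the samples in the main fit. The correlation of replicate 1 deviations between groups ran from -0.063 (HGF 1 h with ITGB4) to 0.66 (untreated with HGF 24 h). It was 0.585 between untreated and 6 h, 0.37 between 1 h and 6 h, and 0.65 between 6 h and 24 h. In the untreated and HGF groups replicate 1 was also the low-score array, so a pairing and the array background cannot be told apart there.

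For the pathway genes, whose alternatives were chosen after seeing the data, 3 were called at 6 h versus untreated, 5 at 6 h versus 1 h and 6 at 24 h versus 6 h. Flooring gave 0, 1 and 3, the pooled-variance test 0, 0 and 0, and for the second alone the count was 1 with the authors' values and 3 with no filter. The replicate block gave 8 for the first (2 higher, 6 lower, 14.8% against 8.85% of all genes). For the second it gave 9 (2 higher, 7 lower, 16.7% against 15.4%), and for the third 9 (5 higher, 4 lower, 16.7% against 18.2%). At 1 h it gave 1 (TCF12, lower, 1.85% against 3.52%). The background block gave 8 and 8 for the first and second (2 higher and 6 lower in each, 14.8% against 8.64% and 13.9%). For the third it gave 8 (4 higher, 4 lower, 14.8% against 17.6%). Leaving out each array gave 0 to 5, 0 to 5 and 2 to 7.

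The share of higher calls among all probes at 6 h was 50.9%, but 17.1% with median scaling, 68.6% from the value table, whose median difference was 0.16, and 60.5% with the floor. At 6 h versus 1 h it was 48.0%, and 23.0% and 62.7% under the first and second of these, and at 24 h versus 6 h 51.0%, 65.6% and 39.4%. ID1 and 3 TGIF1 probes were below detection and SMAD6, SKIL and ID3 near it, so their differences are limited by signal over background.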
